A study of Homo sapiens with 3 samples.

Results

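Potassium channel genes were taken as every gene whose symbol begins with KCN, further letters and a digit, leaving out antisense, intronic and overlapping transcripts (suffixes AS1, IT1 and OT1). The rule gave 86 of the 19775 genes that had a probe set with 1 annotated symbol, through 169 of 41091 such probe sets. Each gene was read through the probe set that was brightest on average (mean of log2 signals), and its mean signal below is the geometric mean of the 3 arrays. The threshold for presence was a signal of 12.2, the 40th percentile of all values on the 3 arrays without the control probe sets. By their mean signal 45 of the 86 genes were above it, 35 were above it on all 3 arrays, 25 on 1 or 2 arrays and 26 on none. In all genes the shares were higher: 72.3% were above the threshold by mean signal, against 52.3% of the potassium channel genes, and 14.5% were above it on no array, against 30.2%. These are brightness values of probe sets, which bind with different strength, so an order between genes is not an order of RNA amounts.

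The arrays held RNA of 3 lines derived from HT1080, an established human fibrosarcoma cell line. RECK/4NQ cells were stably transfected with a mutant RECK whose 4 N-glycosylated asparagines had been changed to glutamine, RECK cells with wild-type RECK, and Zeo cells were mock-transfected. RECK is a membrane-anchored inhibitor of matrix metalloproteinases. All 3 lines were kept in 50 µg/mL Zeocin, the drug that selects for the pZeoSV2(+) vector, with 10% serum, and whether each is 1 clone or a pool is not given in the labels. There was 1 array per line, so no value has a replicate, no test was possible, and a difference between lines cannot be told apart from a difference between arrays. Signals are MAS5 intensities on a linear scale, given below in the order RECK/4NQ, RECK and Zeo.

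The brightest RECK probe set, of a type that can match several transcripts, read 442, 387 and 264. Of 4 dimmer RECK probe sets, 1 had the same order, at 25.1, 17.9 and 5.64. The rest did not: the first read 19.8, 21.0 and 21.7, the second 12.4, 18.2 and 11.2, and the last 11.3, 2.08 and 26.2. The arrays had median signals of 17.3, 17.9 and 20.3, and among genes with a mean above the threshold the median log2 ratio was -0.12 for RECK/4NQ over Zeo, -0.20 for RECK over Zeo and 0.06 for RECK/4NQ over RECK. Folds below are as deposited, and log2 ratios described as relative have these shifts subtracted. All 8 mesenchymal markers listed (among them VIM and FN1) were above the threshold on every array, and of 4 epithelial markers CDH1 alone reached it, at 15.6 on the RECK/4NQ array. Of 3 measured leukocyte markers 1, CD3E, was above it on all 3 arrays, at 34.3, 26.6 and 48.7. Of 3 endothelial markers 1, PECAM1, was so too, at 72.4, 70.3 and 108. Markers of other cell types thus also passed the threshold. Of 8 neural and muscle markers 4 were above it on all 3 arrays, with summed signals of 153, 183 and 258, and their part in the levels of channel genes was not tested.

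Potassium channels let potassium ions leave or enter the cell along their gradient and so set the resting membrane potential, cell volume and the driving force for calcium entry. Voltage-gated and inward-rectifier channels are built from 4 pore-forming subunits, two-pore-domain channels carry a leak current, and calcium-activated channels link the potential to intracellular calcium. Accessory subunits form no pore of their own and change the gating or surface level of the channels they bind. In fibroblasts and tumour cells these channels are known mainly for effects on proliferation, volume change and migration.

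By class, the accessory subunits had 12 of 16 genes above the threshold by mean signal and the calcium- or sodium-activated channels 6 of 7. The voltage-gated genes had 17 of 35 above it, the two-pore-domain genes 6 of 14 and the inward rectifiers 4 of 13. Classes follow the gene symbol, so KCNU1 was counted with the calcium- or sodium-activated channels by its symbol and not by what activates it. The remaining member, KCNQ1DN, a transcript beside KCNQ1 that encodes no channel subunit, was at 7.40, 2.97 and 5.84. Just above the threshold by mean signal lay KCNU1, KCNJ8 and KCNQ1, and just below it KCNE4, KCNJ6 and KCNJ1. KCNQ1, a cardiac and epithelial channel, read 7.82, 15.4 and 20.1, and KCNJ6, a G-protein-gated channel best known in neurons, 11.0, 12.1 and 11.6. Among genes of interest in other tissues, KCNJ11, the pore of the ATP-sensitive channel of pancreatic beta cells, read 3.33, 5.84 and 2.00, and KCNK2, a mechanosensitive leak channel, 3.33, 6.58 and 4.45, below the threshold on every array.

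**Figure D1:**
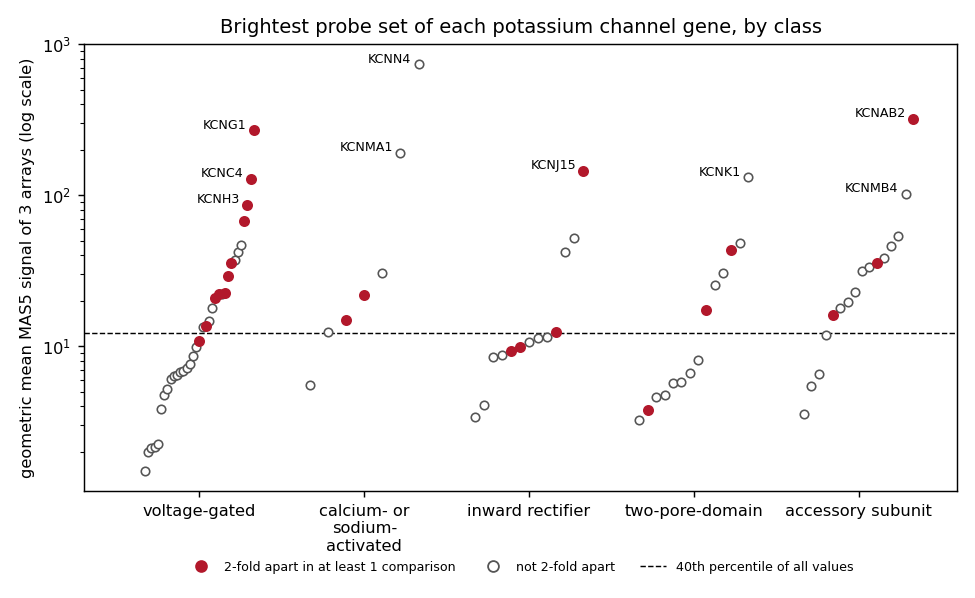
Each point is 1 of 85 channel subunit genes, placed by class (horizontal) and by the geometric mean of its 3 MAS5 signals (vertical, log scale). Filled points differ at least 2-fold in 1 or more comparisons, and the dashed line is the threshold of 12.2; KCNN4 and KCNAB2 are the brightest and most inward rectifiers lie below the line.

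A pair of signals was taken as 2-fold apart when both reached the threshold and their ratio was at least 2, or when just one reached it and was at least 2 times the threshold. With 1 signal below the threshold the fold is a lower bound. In all, 23 of the 86 genes (26.7%) met this in at least 1 comparison, against 19.9% of all genes, and for 10 of the 23 each such fold was a bound. As a scale for a ratio, the robust spread of ratios among the 1000 genes nearest in level is given. It holds real differences as well as noise, and it lay between 0.35 and 0.67 log2 units for the 15 brightest members.

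In RECK cells against Zeo cells, the accessory subunit KCNAB2 and the inward rectifier KCNJ15 were lower and the modifier subunits KCNS3 and KCNG1 higher. Of the 86 genes 17 (19.8%) were 2-fold apart, against 10.7% of all genes. Of these 7 were higher, 8.14% of members against 4.03% of all genes, and 10 lower, 11.6% against 6.71%. Both signals were at or above the threshold for 2 of the 7 and 6 of the 10. The shares, here and in the comparisons below, were not matched for level. The median of mean signals was 12.96 for members and 33.8 for all genes. For RECK over Zeo the spread of ratios was 0.88 log2 units at the level of the dim KCNA6 and 0.37 at that of KCNN4. KCNAB2, KCNJ15, KCNG1 and KCNS3 lay over 3 spreads from the median of genes of like level.

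In RECK/4NQ cells against Zeo cells, KCNS3 was also higher, while KCNE3, KCNS1 and KCNK3 were lower. Of the 86 genes 10 (11.6%) were 2-fold apart, against 9.96% of all genes. The 3 higher genes were 3.49% of members against 2.82% of all genes, and the 7 lower ones 8.14% against 7.14%. Shares so close to those of all genes say nothing about potassium channels as a group, and both signals were at or above the threshold for 5 of the 10. This comparison uses the same Zeo array as the one before.

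In RECK/4NQ cells against RECK cells, KCNAB2 and KCNJ15 were higher and KCNK3, KCNS1 and KCNF1 lower. Of the 86 genes 12 (14.0%) were 2-fold apart, against 10.3% of all genes. There were 4 higher, 4.65% of members against 4.48% of all genes, and 8 lower, 9.30% against 5.77%, with 6 of the 12 measured at or above the threshold on both arrays. After each array was centred on its median, 7 were higher and 8 lower, 17.4% of members against 11.0% of all genes. That centring raised the share of higher among all genes 2-fold apart to 50.9% for RECK/4NQ over Zeo, against 28.3% as deposited, and to 54.2% for RECK over Zeo, against 37.5%, while quantile normalisation gave 45.9% and 53.8%. Centring also turned the median log2 ratio of RECK/4NQ over Zeo among genes with a mean above the threshold to 0.10, against -0.12 as deposited.

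Over all 86 members the median log2 ratio was 0 in each comparison, because many had both signals below the threshold, and over all genes it was 0 for RECK/4NQ over Zeo, -0.05 for RECK over Zeo and 0 for RECK/4NQ over RECK. Among the 45 members with a mean above the threshold it was -0.22, -0.25 and -0.07, beside -0.12, -0.20 and 0.06 for all such genes.

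**Figure D2:**
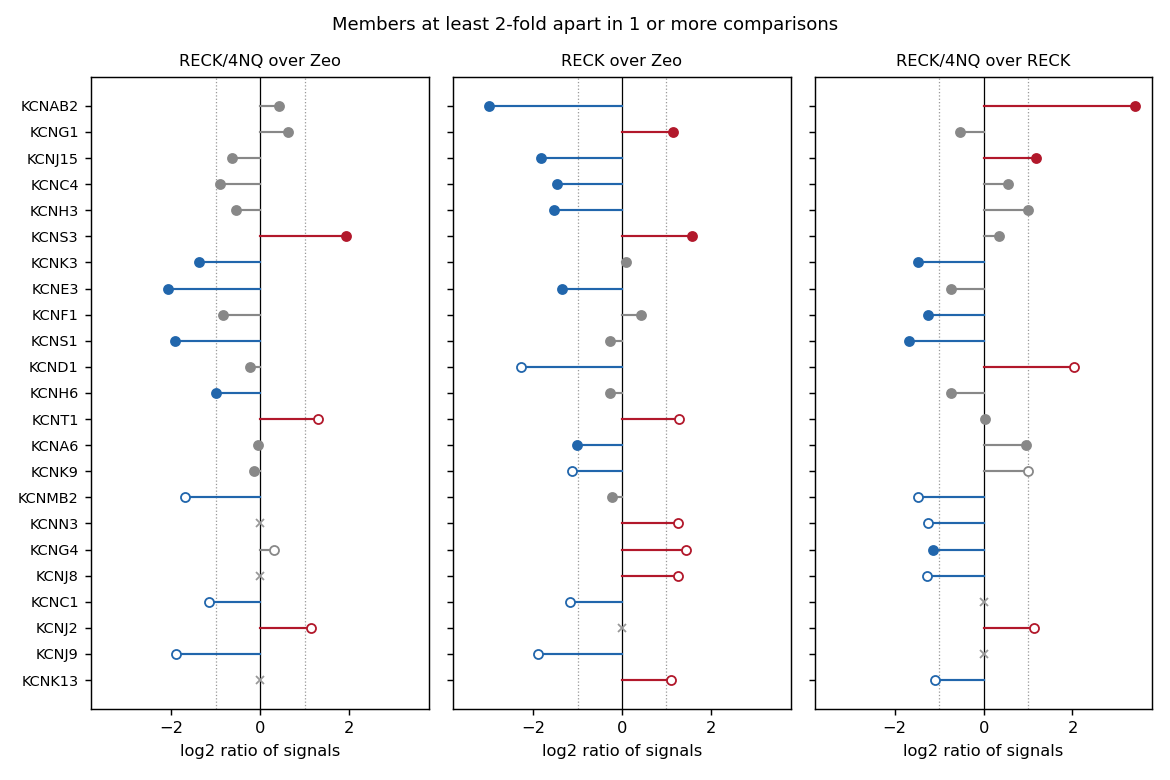
Log2 ratios of MAS5 signals (horizontal) for the 23 genes at least 2-fold apart in 1 or more comparisons, brightest at the top, in 1 panel per comparison. Red is higher and blue lower, grey is under 2-fold, open circles are bounds with 1 array below the threshold, crosses have both below it, and dotted lines mark 2-fold; KCNAB2 has the longest bars, lower in RECK than in Zeo and higher in RECK/4NQ than in RECK.

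Among accessory subunits, KCNAB2 encodes a cytoplasmic beta subunit of voltage-gated channels with the fold of an aldo-keto reductase. Its signals were 774 in RECK/4NQ, 73.1 in RECK and 582 in Zeo. The RECK array stood alone: it was 7.96-fold below Zeo (log2 ratio -2.99, relative -2.80, 6.51 spreads), and RECK/4NQ was 10.6-fold above RECK (log2 3.40, 7.19 spreads), while RECK/4NQ and Zeo differed 1.33-fold. The other KCNAB2 probe set had the same order, at 68.6, 24.9 and 64.2, which is 2.57-fold lower in RECK than in Zeo. None of the 10 nearest measured genes on chromosome 1 (5 on each side, among them NPHP4, RPL22 and ICMT) was 2-fold apart in any comparison (19.9% of all genes were). Their median log2 ratios were -0.04, -0.28 and 0.06 for RECK/4NQ over Zeo, RECK over Zeo and RECK/4NQ over RECK. The related beta subunit genes KCNAB1 and KCNAB3 were dim by their brightest probe sets, at 15.0, 22.7 and 17.2 for KCNAB1 and 13.2, 23.93 and 23.96 for KCNAB3. Other KCNAB1 probe sets differed in order. One read 9.42, 41.3 and 7.36, at least 3.38-fold higher in RECK than in either other line. A further one was above the threshold in RECK/4NQ alone, at 17.4, 7.16 and 5.77.

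KCNE3, a single-span subunit that partners several voltage-gated channels, read 18.6, 30.8 and 78.1, so both transfected lines were below Zeo, 4.20-fold for RECK/4NQ and 2.54-fold for RECK. Its second probe set did not share this order, at 11.6, 24.4 and 14.8, and the remaining one was below the threshold on every array. The beta subunits of the large-conductance channel differed among themselves. KCNMB4, known from brain, read 94.4, 119 and 94.3 and KCNMB1, known from smooth muscle, 41.2, 44.0 and 54.3, both under 2-fold in every comparison. Other KCNMB4 probe sets differed in order. A second read 56.5, 72.5 and 81.2. The third read 25.9, 6.37 and 7.39, at least 2.12-fold higher in RECK/4NQ than in either other line. KCNMB2, which confers inactivation, read 3.12, 33.9 and 39.8, at least 3.26-fold lower in RECK/4NQ than in Zeo and at least 2.77-fold lower than in RECK. Its other probe set was below the threshold on every array, and 4 of 7 alternatives kept the difference from Zeo at 2-fold (log2 ratio 0 without shared probe sets and -0.85 with probe sets averaged). Among the calcium-binding KCNIP subunits, KCNIP3, which also acts as a transcriptional repressor, read 46.9, 62.4 and 53.9. Dimmer probe sets of KCNIP3 itself read 14.2, 22.2 and 19.1, and 3.35, 8.14 and 39.7. KCNIP1 read 20.9, 18.4 and 31.2, KCNIP2 32.5, 45.7 and 38.5, and KCNIP4 31.6, 29.9 and 39.7, all under 2-fold in every comparison. Among the 16 accessory subunits, 0 were higher and 2 lower in RECK/4NQ than in Zeo (all genes: 2.82% higher and 7.14% lower). In RECK against Zeo 0 were higher and 2 lower (all genes: 4.03% and 6.71%). In RECK/4NQ against RECK 1 was higher and 1 lower (all genes: 4.48% and 5.77%). Counts within a class, here and below, are small and were not tested against those shares.

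**Figure D3:**
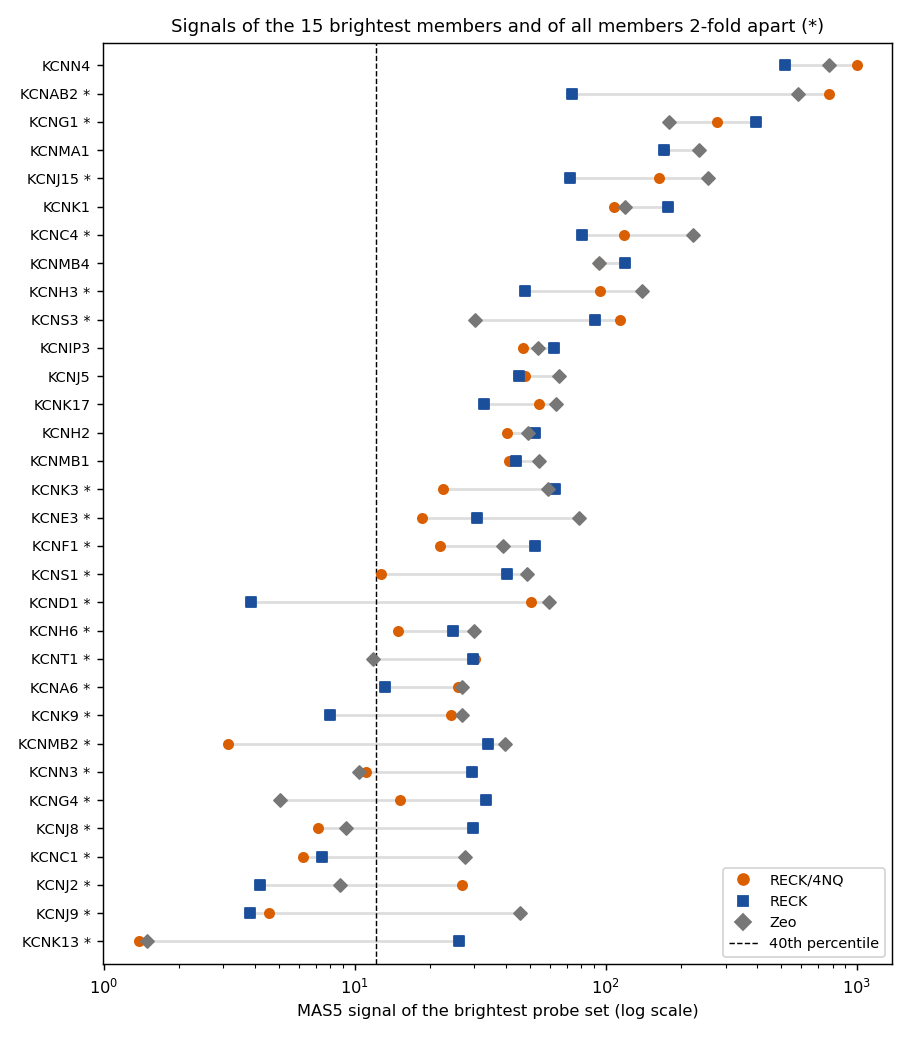
MAS5 signal (horizontal, log scale) of the brightest probe set on the RECK/4NQ, RECK and Zeo arrays for the 15 brightest members and all genes 2-fold apart (asterisk), brightest at the top. The RECK square of KCNAB2 lies at 73.1, far left of its RECK/4NQ and Zeo points, and below KCNS1 every gene with an asterisk has at least 1 point left of the threshold (dashed), except KCNH6 and KCNA6, whose lowest values are 14.9 and 13.3.

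Among voltage-gated pore subunits the brightest was KCNG1, one of the silent subunits, which conduct no current alone and change the properties of KCNB channels when they join them. It read 276 in RECK/4NQ, 396 in RECK and 178 in Zeo, 2.22-fold higher in RECK than in Zeo (log2 ratio 1.15, relative 1.35, 3.20 spreads) and 1.55-fold in RECK/4NQ. A dim second probe set reached the threshold in RECK alone, at 2.70, 25.4 and 2.03. KCNS3, another silent subunit, was measured by 1 probe set, at 114, 90.3 and 30.1. Both transfected lines lay well above Zeo, 3.8-fold for RECK/4NQ (log2 1.92, 4.10 spreads) and 3.00-fold for RECK (log2 1.58, 3.60 spreads), and differed 1.27-fold from each other. Its 10 nearest measured genes on chromosome 2 had median log2 ratios of -0.55, -0.49 and -0.06. Of these 10, 1 was 2-fold higher and 2 lower in RECK/4NQ than in Zeo (all genes: 2.82% and 7.14%). In RECK against Zeo 1 was higher and 1 lower (all genes: 4.03% and 6.71%), and in RECK/4NQ against RECK 0 and 1 (all genes: 4.48% and 5.77%). A link between KCNS3 and its neighbours was not tested.

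The other silent subunits were dimmer. KCNS1 read 12.7, 40.4 and 48.5, 3.81-fold lower in RECK/4NQ than in Zeo and 3.18-fold lower than in RECK. KCNF1 read 21.8, 52.3 and 38.8, 2.39-fold lower in RECK/4NQ than in RECK. KCNG4 read 15.1, 33.5 and 5.04, at least 2.74-fold higher in RECK than in Zeo and 2.21-fold lower in RECK/4NQ than in RECK. Of these silent subunits, KCNS3 alone was 2-fold higher than Zeo in both transfected lines, and KCNG1 and KCNG4 were so in RECK only.

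KCNC4, the pore of a fast-inactivating channel, read 118, 80.5 and 223, 2.77-fold lower in RECK than in Zeo (2.87 spreads) and 1.88-fold lower in RECK/4NQ. A second probe set followed it, at 51.4, 51.7 and 102, but the remaining one went the other way, at 62.4, 45.7 and 13.8. Averaged over the 3 probe sets, the log2 ratio of RECK/4NQ over Zeo was 0.09 and that of RECK over Zeo -0.24, so the direction of KCNC4 depends on the probe set. KCNH3, a brain channel of the ether-a-go-go family, read 95.3, 47.9 and 139, 2.90-fold lower in RECK than in Zeo (2.74 spreads), and had 1 probe set. KCNH2, the cardiac repolarising channel that also occurs in tumour cells, read 40.6, 52.4 and 49.0, within 1.29-fold in every comparison.

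KCND1, the pore of a transient A-type channel, read 50.5 in RECK/4NQ, 3.86 in RECK and 59.2 in Zeo. Only the RECK array was below the threshold, at least 4.84-fold under Zeo, and RECK/4NQ was at least 4.13-fold above RECK. KCNA6, of the family that KCNAB2 binds, read 25.9, 13.3 and 26.7, 2.02-fold lower in RECK than in Zeo, a difference kept at 2-fold in 3 of 6 alternatives (log2 ratio -0.82 after centring). Of the other KCNA genes, KCNA10 passed the threshold at 12.4 in RECK/4NQ and 13.1 in RECK, and KCNA1, KCNA3, KCNA4, KCNA5 and KCNA7 were below it on every array. KCNH6, at 14.9, 24.5 and 29.8, was 2.00-fold lower in RECK/4NQ than in Zeo, and 2 of 7 alternatives kept a 2-fold difference (log2 ratio -0.77 with arrays centred on their medians). KCNC1, at 6.24, 7.39 and 27.4, was at least 2.24-fold lower than in Zeo in both transfected lines. Of the 35 voltage-gated genes 1 was higher and 3 lower in RECK/4NQ than in Zeo (all genes: 2.82% higher and 7.14% lower). In RECK against Zeo 3 were higher and 5 lower (all genes: 4.03% and 6.71%). In RECK/4NQ against RECK 1 was higher and 3 lower (all genes: 4.48% and 5.77%).

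Among calcium- and sodium-activated channels, KCNN4, the intermediate-conductance calcium-activated channel, was the brightest of all members and read 997 in RECK/4NQ, 517 in RECK and 776 in Zeo. It was under 2-fold in every comparison, at 1.93-fold higher in RECK/4NQ than in RECK (1.94 spreads), 1.28-fold above Zeo in RECK/4NQ, and 1.5-fold below Zeo in RECK. KCNMA1, the pore of the large-conductance channel, read 169.9, 171 and 235, and its second probe set 74.1, 72.6 and 51.6, so the transfected lines were level with each other on both and on opposite sides of Zeo. KCNT1, a sodium-activated channel, read 30.2, 29.7 and 11.8, at least 2.47-fold higher than Zeo in RECK/4NQ and 2.43-fold in RECK. Its other probe sets were above the threshold in RECK alone, at 27.4 and 25.8. KCNN3, a small-conductance channel, read 11.1, 29.3 and 10.4, while another probe set had its high value in RECK/4NQ, at 26.8, 2.65 and 3.72. KCNN1, of the same family, read 27.2, 33.6 and 30.9. Set against Zeo, 1 of the 7 genes was higher in RECK/4NQ (2.82% of all genes) and 2 in RECK (4.03% of all genes). In either line 0 were lower (7.14% and 6.71% of all genes). In RECK/4NQ against RECK 1 was lower (5.77% of all genes).

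Among inward rectifiers the brightest was KCNJ15, known from kidney and other epithelia, at 163 in RECK/4NQ, 72.1 in RECK and 256 in Zeo. It was 3.54-fold lower in RECK than in Zeo (log2 ratio -1.83, relative -1.63, 3.71 spreads), 2.26-fold higher in RECK/4NQ than in RECK, and 1.57-fold lower in RECK/4NQ than in Zeo. Of its 4 other probe sets, 3 were also lowest in RECK, at 109, 60.01 and 112 for the first, 31.8, 13.7 and 28.0 for the second and 29.4, 1.26 and 17.1 for the third. The remaining one read 11.0, 16.5 and 21.5, with its lowest value in RECK/4NQ. The 10 measured genes nearest to KCNJ15 on chromosome 21 had median log2 ratios of 0.07, -0.01 and 0.01. Of these 10, 1 was 2-fold higher and 1 lower in RECK/4NQ than in Zeo (all genes: 2.82% and 7.14%). In RECK against Zeo 0 were higher and 0 lower (all genes: 4.03% and 6.71%), and in RECK/4NQ against RECK 1 and 2 (all genes: 4.48% and 5.77%).

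Most other inward rectifiers were near or below the threshold. KCNJ5, a G-protein-gated subunit, read 47.7, 45.3 and 64.9, and KCNJ14 52.2, 27.2 and 53.0. Dimmer KCNJ5 probe sets differed in direction. A second read 10.3, 33.8 and 36.0 and another 3.33, 17.7 and 27.3, at least 2.94-fold and 2.23-fold lower in RECK/4NQ than in Zeo. A further one read 28.9, 27.9 and 8.44, at least 2.36-fold higher than Zeo in RECK/4NQ and 2.28-fold in RECK. KCNJ2, the classical strong inward rectifier, reached the threshold in RECK/4NQ alone, at 26.8, 4.21 and 8.75, and KCNJ8, a pore of ATP-sensitive channels in vessels, in RECK alone, at 7.17, 29.5 and 9.22. KCNJ9 was above it in Zeo alone, at 4.55, 3.84 and 45.5, at least 3.72-fold lower in both transfected lines, while its other probe set reached it in RECK/4NQ alone, at 18.8. Of the 13 genes, 1 was higher and 1 lower in RECK/4NQ than in Zeo (all genes: 2.82% higher and 7.14% lower). In RECK against Zeo 1 was higher and 2 lower (all genes: 4.03% and 6.71%). In RECK/4NQ against RECK 2 were higher and 1 lower (all genes: 4.48% and 5.77%).

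Among two-pore-domain genes, KCNK1 was the brightest, at 107, 177 and 119, under 2-fold in every comparison. A second KCNK1 probe set had its lowest value in RECK, at 23.4, 3.88 and 49.9, opposite to the first. KCNK3, an acid-sensitive leak channel, read 22.6, 62.7 and 59.1, 2.62-fold lower in RECK/4NQ than in Zeo and 2.78-fold lower than in RECK. Its second probe set was lowest in RECK/4NQ too, at 20.9, 26.8 and 35.4, and the third reached the threshold in RECK alone, at 31.3. KCNK17 read 54.5, 32.8 and 63.5, with no difference of 2-fold. KCNK9, related to KCNK3, was at least 2.19-fold lower in RECK than in Zeo, at 24.3, 8.01 and 26.8, but its other probe set was above the threshold in RECK alone, at 5.59, 29.98 and 5.02. KCNK13, at 1.39, 26.1 and 1.49, was also above it in RECK alone. Of the 14 genes, 0 were higher and 1 lower in RECK/4NQ than in Zeo (all genes: 2.82% higher and 7.14% lower). In RECK against Zeo 1 was higher and 1 lower (all genes: 4.03% and 6.71%). In RECK/4NQ against RECK 0 were higher and 2 lower (all genes: 4.48% and 5.77%).

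**Figure D4:**
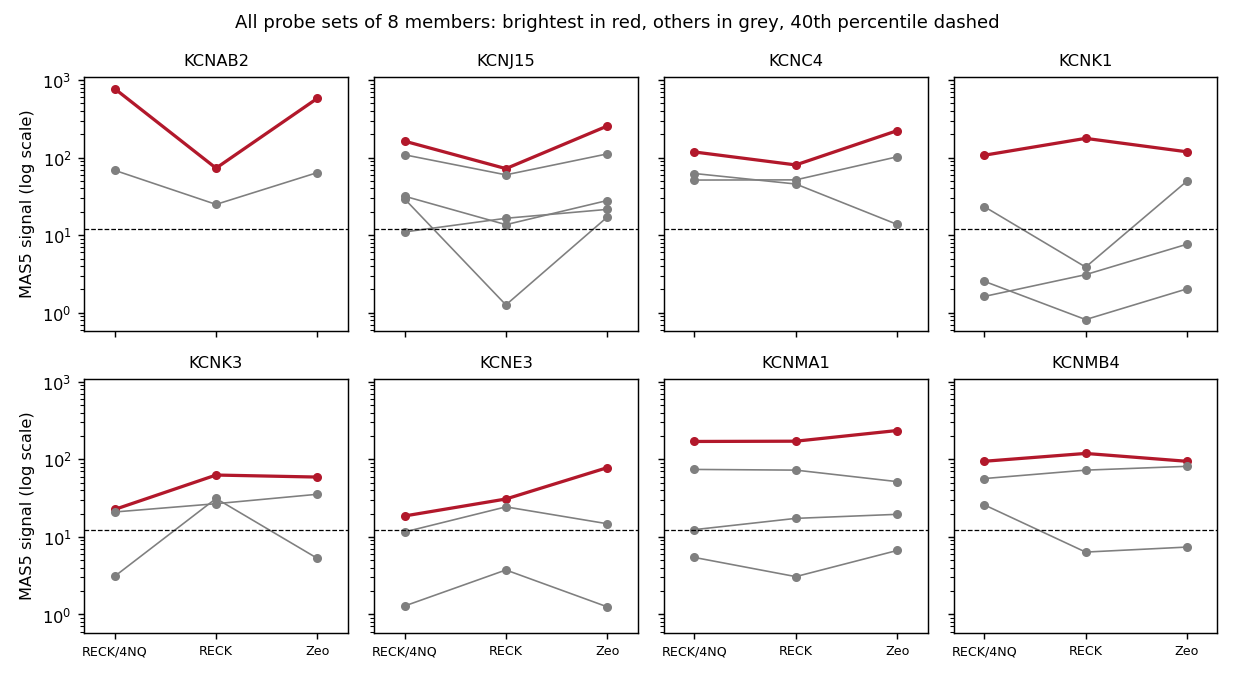
MAS5 signal (vertical, log scale) of every probe set of 8 members on the RECK/4NQ, RECK and Zeo arrays (horizontal), each line joining the 3 values of 1 probe set, with the brightest in red and the threshold dashed. All probe sets of KCNAB2 and most of KCNJ15 have their lowest point in RECK, while those of KCNC4, KCNK1, KCNE3, KCNMA1 and KCNMB4 differ in order.

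By their place among the 3 lines, KCNAB2, KCNJ15 and KCND1 were 2-fold lower in RECK than in both other lines, as were 1.99% of all genes (3.49% of members). KCNN3, KCNG4, KCNJ8 and KCNK13 were higher in RECK than in both (4.65% of members, 1.92% of all genes), all below or near the threshold in the other lines. KCNK3, KCNS1 and KCNMB2 were lower in RECK/4NQ than in both (3.49% against 2.09%), and KCNJ2 higher (1.16% against 1.00%). KCNS3 and KCNT1 were higher than Zeo in both transfected lines (2.33% against 0.93%), and KCNE3, KCNC1 and KCNJ9 lower (3.49% against 2.43%). These places follow from comparisons that share arrays.

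Other probe sets of the genes 2-fold apart gave a further reading. For RECK over Zeo, 12 other probe sets of 7 members had a signal at or above the threshold, and 9 of them had the same direction (75.0%, against 62.9% of 1296 over all genes). The same direction by at least 2-fold was seen in 5 (41.7%, against 19.4% over all genes). The opposite by at least 2-fold was seen in 2 of the 12, and in 70 of the 1296 over all genes. Several of the 12 belonged to KCNJ15. Those of KCNT1, at least 2.24-fold and 2.11-fold higher in RECK than in Zeo, were among the 5 of the same direction by 2-fold. The 12 and the 5 are therefore not independent readings. For RECK/4NQ over RECK, 6 of 9 had the same direction (66.7%, against 64.7% over all genes). By at least 2-fold, 4 of the 9 had the same direction (44.4% against 21.3%) and 1 the opposite. For RECK/4NQ over Zeo 2 of 3 had the same direction (66.7% against 61.7%), and 0 of the 3 by at least 2-fold (14.6% over all genes). In these comparisons the shares by direction alone were close to those of all genes, and the counts are small.

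Sequences before the annotated starts are shown for KCNAB2, KCNJ15 and KCNS3. These genes, and KCNG1, which is not shown, lay over 3 spreads from genes of like level in RECK against Zeo. KCNAB2 and KCNJ15 were low in RECK, and KCNS3 was high in both transfected lines. The sequences are the 250 bases before a gene start in RefSeq on GRCh38.p14, 5′ to 3′, and for genes with several starts (4 for KCNAB2, 2 for KCNS3, 1 for KCNJ15) the first along the gene. Which start these cells use is not known from the arrays. Capitals mark matches on either strand to CCAAT, to the GC box GGGCGG, to the AP-1 site TGANTCA and to the TATA box TATAAA.
KCNAB2, chr1:5992426-5992675, + strand: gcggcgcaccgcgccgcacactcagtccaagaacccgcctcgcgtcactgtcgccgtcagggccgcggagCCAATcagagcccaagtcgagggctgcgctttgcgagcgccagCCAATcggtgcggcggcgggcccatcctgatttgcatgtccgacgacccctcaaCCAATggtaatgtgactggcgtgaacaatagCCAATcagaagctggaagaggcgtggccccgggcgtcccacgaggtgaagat
KCNJ15, chr21:38272258-38272507, + strand: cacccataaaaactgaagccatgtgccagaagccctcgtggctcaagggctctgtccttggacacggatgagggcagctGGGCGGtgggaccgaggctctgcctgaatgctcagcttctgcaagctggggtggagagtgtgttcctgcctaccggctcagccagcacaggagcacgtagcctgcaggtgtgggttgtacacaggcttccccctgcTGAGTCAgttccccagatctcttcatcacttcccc
KCNS3, chr2:17877597-17877846, + strand: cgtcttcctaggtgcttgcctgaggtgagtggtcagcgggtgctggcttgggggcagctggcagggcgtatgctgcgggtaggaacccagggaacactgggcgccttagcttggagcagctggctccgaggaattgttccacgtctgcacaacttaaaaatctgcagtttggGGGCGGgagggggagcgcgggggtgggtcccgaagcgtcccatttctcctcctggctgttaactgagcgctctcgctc
The KCNAB2 stretch held CCAAT 4 times and none of the other motifs, the KCNJ15 stretch 1 GC box and 1 AP-1 match, and the KCNS3 stretch 1 GC box. Of 35116 such windows of all genes, 32.0% held CCAAT (0.874% at least 4 times), 42.6% the GC box, 6.57% the AP-1 site and 10.7% the TATA box. Of 104 windows of 67 members, 31.7% held CCAAT, 50.0% the GC box, 8.65% the AP-1 site and 8.65% the TATA box. The KCNAB2 stretch held 27 CG dinucleotides, the KCNJ15 stretch 6 and the KCNS3 stretch 14, beside a median of 14.5 for windows of members and 11 for all. A match is a match of letters, not a measured site.

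Of 36 listed genes of potassium handling outside the KCN symbols, such as pumps, cotransporters and their regulators, 29 were measured. In RECK/4NQ against Zeo 4 were higher, 1 lower and 24 neither (all genes: 2.82% higher and 7.14% lower). In RECK against Zeo 2 were higher, 1 lower and 26 neither (all genes: 4.03% and 6.71%). In RECK/4NQ against RECK 2 were higher and 0 lower (all genes: 4.48% and 5.77%). The list was chosen with earlier results of these data known, and its counts were not tested against those shares. SLC12A4, a potassium-chloride cotransporter, read 175, 201 and 63.5 by its brightest probe set, but a second read 53.2, 60.9 and 59.0 and another 43.6, 6.18 and 50.3. TMEM175, a lysosomal potassium channel, read 60.1, 62.5 and 27.2, above Zeo in both transfected lines, by 2.21-fold in RECK/4NQ and 2.3-fold in RECK. NEDD4L, a ubiquitin ligase that acts on several ion channels, read 798, 372 and 395 by its brightest probe set, and none of its other probe sets was 2-fold higher in RECK/4NQ than in either other line. HCN3 was at 46.9, 44.2 and 22.6, HCN2 at 7.42, 20.7 and 29.1, and the cotransporter SLC12A1 at 25.98, 5.28 and 34.7. The brightest, FXYD5 and ATP1B3, both subunits or regulators of the sodium-potassium pump, were at 9948, 8974 and 7475 and at 2158, 1759 and 1894, under 2-fold throughout, as were SGK1 (437, 563 and 685) and WNK1 (280.4, 247 and 260.3).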

How the data were processed

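Total RNA of 3 HT1080 lines was hybridised to 1 Affymetrix array each. The deposited values are MAS5 signal intensities on a linear scale, 1 per probe set. The submitters' processing notes name MAS5; which version and which scaling were used is not given in those sources. MAS5 subtracts mismatch signal, so dim values are noisy. Each array held 54675 probe sets, of which 62 were controls; 41091 others had 1 gene symbol in the platform annotation, 1801 several and 11721 none. Groups came from the sample titles. The single array per line limits the precision, and no p-value or SD can be had.

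All ratios were computed here with Python 3.11.15, numpy 2.4.6 and pandas 2.3.3. Signals under the threshold of 12.2 were set to it before log2 ratios were taken, and calls at 2-fold were made over all 19775 genes. The spread is the scaled median absolute deviation within the window of 1000 genes. Calls and spread were tested on simulated data in which bright genes were changed by more than 2-fold. Changes of 2-fold and changes in dim genes were not simulated. All 86 members matched a RefSeq gene by gene ID, with 0 changed symbols. A literal hyphen in the suffix rule would add KCNQ1OT1 (87 members). Named were members 2-fold apart in any comparison (at most 30), the 15 brightest, the 3 nearest the threshold on each side, KCNAB2, KCNMA1, KCNN4, KCNH2, KCNJ11, KCNK1, KCNK2 and KCNQ1, and of the other potassium genes those 2-fold apart and the 5 brightest; other genes were chosen after their values were seen. Members and lists were chosen with earlier results of these data known. Alternatives were the threshold at the 20th and 60th percentile, other ways to choose or average probe sets, median centring, quantile normalisation, 1.5-fold and 3-fold limits, and KCNQ1OT1 as a member.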

Additional observations from a re-analysis of the deposited data

How the results depend on the processing

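With the threshold at the 20th percentile, 75 members were above it by mean signal and 62 on all 3 arrays, and at the 60th percentile 27 and 20. At the 20th percentile the genes higher and lower were 14 and 15 (RECK/4NQ over Zeo), 13 and 16 (RECK over Zeo), and 12 and 13 (RECK/4NQ over RECK), which is 33.7%, 33.7% and 29.1% of members against 20.7%, 20.9% and 21.3% of all genes. At the 60th they were 1 and 2, 2 and 6, and 2 and 1, which is 3.49%, 9.30% and 3.49% of members against 3.15%, 4.32% and 4.30% of all genes. With the mean of all probe sets of a gene, the lower genes numbered 1 (RECK/4NQ over Zeo), 4 (RECK over Zeo) and 5 (RECK/4NQ over RECK), and the members 2-fold apart either way were 3.49%, 10.5% and 9.30% against 5.65%, 6.68% and 6.17% of all genes. Median centring gave 7 higher for RECK/4NQ over RECK. At 1.5-fold there were 6 and 14 (RECK/4NQ over Zeo), 8 and 14 (RECK over Zeo), and 11 and 16 (RECK/4NQ over RECK), or 23.3%, 25.6% and 31.4% of members against 25.7%, 27.8% and 26.9% of all genes. The larger share of members than of all genes for RECK over Zeo at 2-fold was thus not seen at 1.5-fold. At 3-fold there were 1 and 4 (RECK/4NQ over Zeo), 0 and 4 (RECK over Zeo), and 2 and 1 (RECK/4NQ over RECK), or 5.81%, 4.65% and 3.49% of members against 2.07%, 2.85% and 2.64% of all genes. No paired analysis was possible because each line has 1 array. The cause of these changes was not tested, other than that a lower threshold admits more dim values.

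Among single genes, the RECK over Zeo log2 ratio of KCNK9 changed sign to 0.0801 with probe sets averaged and to 1.29 with the probe set of the highest single signal or without shared probe sets. That of KCNN3 for RECK/4NQ over RECK became 0.0951 with probe sets averaged. KCNAB2 stayed at least 2-fold apart with the same sign in 7 of 7 alternatives, with log2 ratios from -2.99 to -2.18 for RECK over Zeo and from 2.43 to 3.45 for RECK/4NQ over RECK. KCNS3 did so in 7 of 7 for both comparisons with Zeo, KCNG1 in 7 of 7 and KCNJ15 in 6 of 7 for RECK over Zeo, where KCNJ15 was at -0.92 in the exception. The brightest probe sets of these genes were above the 60th percentile signal of 27.8 on every array. The threshold alternatives therefore could not change their ratios. KCNS3 has 1 probe set, so only centring and quantile normalisation could change its ratios. Of the 39 log2 ratios given as 2-fold apart, 8 stayed so with the same sign in every alternative that left the 2-fold limit as it was. By setting, 14 of 39 did so at the 60th percentile, 20 of 39 with probe sets averaged, 32 of 38 without shared probe sets and 36 of 39 after centring or quantile normalisation. Ratios under 2-fold also changed sign in places, such as KCNK1 for RECK over Zeo. Signals near the threshold limit all but the brightest genes.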
